A study of Zea mays with 24 samples.

Results

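Alpha zeins are the main storage proteins of the maize (Zea mays) kernel. They are alcohol-soluble prolamins, made on the rough endoplasmic reticulum of the starchy endosperm and packed into protein bodies, and they hold nitrogen and carbon for the seedling. Their genes lie in tandem arrays of very similar copies, and their transcription in filling endosperm is known to be driven by endosperm transcription factors such as Opaque2 and the prolamin-box binding factor. The genes described here are 7 identifiers, Zm00001d048806 to Zm00001d048810, Zm00001d048812 and Zm00001d048813, listed as a tandem alpha zein cluster on the short arm of chromosome 4. All 7 were found among the 46430 features of the deposited counts. The counts do not pair identifiers with names, and a RefSeq gene table (Zm-B73-REFERENCE-NAM-5.0) matched 0 of the 44146 nuclear gene models, so the name alpha zein rests on the member list alone. That table lists 14 entries of the alpha zein array z1C1 and 9 of the array z1A1 on chromosome 4, but none can be tied to an identifier.

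Transcript 3' ends of endosperm at 15 days after pollination were counted in 24 libraries, each from 5 to 10 pooled endosperms, in 8 groups of 3. In the genotype experiment mutant endosperm of ZmICE1a was set against wild type, both without hormone. ZmICE1a is named for ICE1, a transcription factor of the bHLH family that is known from Arabidopsis. In the IAA experiment IAA-treated wild type was set against untreated wild type (IAA, indole-3-acetic acid, is the main natural auxin). In the JA experiment (JA, jasmonic acid, is a hormone of wounding and defence) there were 4 groups: JA-treated mutant, untreated mutant, JA-treated wild type and untreated wild type. The sources used here do not give the kind of mutation, the inbred line, or the dose and time of each hormone. Nothing in the labels says that the 3 libraries of a group came from different plants, and the p-values therefore speak of the spread between the libraries at hand, part of which may be technical.

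The labels of 2 groups of the JA experiment disagree. The libraries called untreated mutant below are so named in their count tables, and their genotype and stage fields also read mutant. Their titles, however, read wild type with JA, and their treatment field reads JA-treated. The libraries called JA-treated wild type below are wild type in table name, genotype field and stage field, but mutant without JA in their titles and untreated in their treatment field. The table names are followed throughout. On the titles, each comparison given as a JA response would become an effect of genotype, and each effect of genotype a JA response. All labels agree for JA-treated mutant and untreated wild type. The feature Zm00001d020949 was taken as a check because earlier results of these same data showed it to differ between the genotypes. In the genotype experiment it had 19.6, 10.6 and 15.2 CPM (counts divided by scaled library size, on a common scale) in the mutant. Its levels in wild type were 2.21, 4.89 and 3.48 CPM. In the JA experiment it had 10.9 to 11.98 CPM in JA-treated mutant, 8.12 to 20.3 CPM in untreated mutant, 0 to 3.26 CPM in JA-treated wild type and 0 to 2.74 CPM in untreated wild type, and so followed the table names. Because it was picked with results of these data known, it is no independent check of the labels. A feature chosen in the same way, Zm00001d041300, at 2.52 to 3.29 CPM in the mutant and 14.6 to 17.7 CPM in wild type of the genotype experiment, had 22.5 to 39.4 CPM in the mutant groups and 32.4 to 51.3 CPM in the wild type groups of the JA experiment, and did not separate them.

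Depth differed between experiments and between groups. The genotype libraries held 3109928 to 4875478 counts each, the IAA libraries 432016 to 959735 and the JA libraries 839322 to 1917363. JA-treated mutant libraries held 847205 to 857113 counts, and untreated wild type libraries 1660718 to 1917363. ENSRNA features, listed without names, took 10.7%, 6.84% and 3.33% of the counts in the 3 untreated mutant libraries of the JA experiment and 1.13% to 3.61% in the other 9. With these features left out of the counts, an alternative chosen after seeing the data, no copy lost its call. The number called was then 5 in place of 4 for JA-treated mutant over untreated wild type, over untreated mutant and over JA-treated wild type, 4 in place of 3 for JA-treated over untreated wild type, and 3 in place of 2 in the genotype experiment. Calls over all features rose too. In the same order they went from 1146 to 1399, 412 to 520, 326 to 452, 307 to 447 and 1104 to 1349. Whether the libraries with high ENSRNA shares differed in other ways was not tested. The 7 identifiers had 12 to 40937 counts each per library, and all 7 passed the low-count filter in every experiment. Near-identical copies can share reads, and the sources used here do not say how such reads were counted. Each copy is therefore given beside the sum of the 7. If each read was counted once, the sum does not depend on how reads were divided among the copies. It would change if shared reads were counted in every matching copy or dropped, and it depends on reads shared with copies elsewhere. That each read was counted once is not established. A pair of neighbours outside the list, described below, had nearly equal counts in every library. Counts were of transcript 3' ends and were not divided by length. With reads possibly shared, an order of counts between copies need not be an order of transcript levels.

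Together the 7 identifiers took 1.92% to 2.17% of all counts in the genotype experiment, 0.430% to 0.632% in the IAA experiment and 1.36% to 3.15% in the JA experiment. Among all 46430 features ranked by mean CPM in each group, Zm00001d048809 stood between 9 and 23, and Zm00001d048812 between 12 and 107. Zm00001d048806 ranked at 32 in JA-treated mutant, at 77 in untreated wild type of the same experiment, and at 3643 and 4717 in IAA-treated and untreated wild type of the IAA experiment.

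Summed over the 7 copies, the level within the JA experiment was highest in JA-treated mutant endosperm. It reached 28471, 32839 and 27958 CPM in the 3 JA-treated mutant libraries. Untreated mutant libraries had 15008, 13266 and 15683 CPM, JA-treated wild type libraries 18825, 17651 and 21696 CPM, and untreated wild type libraries 12602, 13451 and 14337 CPM. The JA-treated mutant libraries thus lay above all 9 others, JA-treated wild type lay above both untreated groups, and the untreated groups overlapped. In bulk endosperm, a larger share of cells that make zeins and more zein RNA per cell cannot be told apart.

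**Figure D1:**
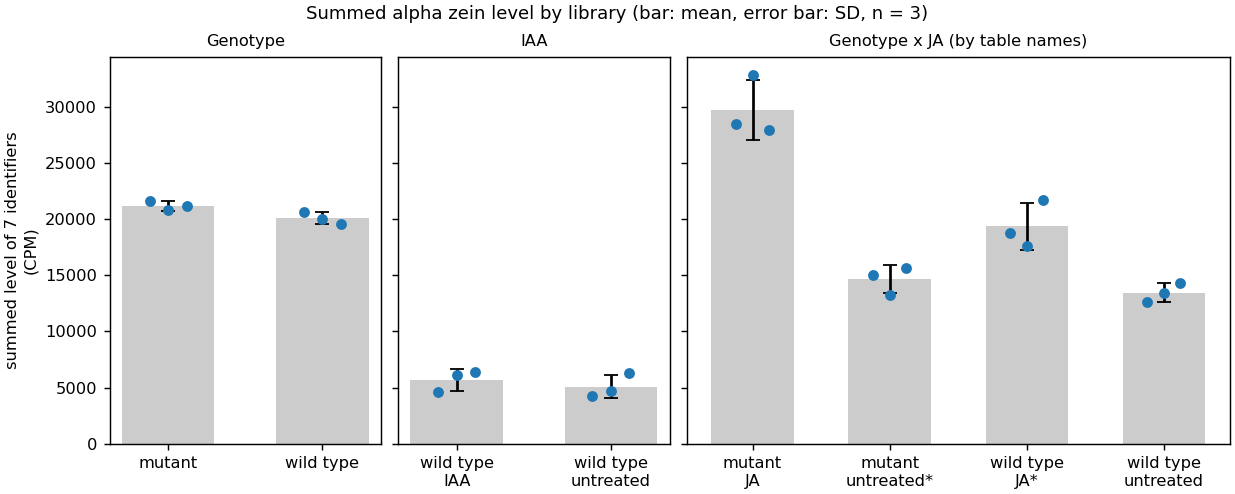
Summed level of the 7 alpha zein identifiers in CPM for every library (points), with group mean (bar) and SD (error bar, n = 3); an asterisk marks the 2 groups whose labels disagree, named here by their count tables. The 3 JA-treated mutant libraries, at 27958 to 32839 CPM, lie above all other libraries of the JA experiment. Each experiment was scaled separately.

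JA-treated mutant and untreated wild type, the groups whose labels agree, differ in both genotype and treatment, and this comparison shows the combined effect. The summed level averaged 29756 ± 2682 CPM in JA-treated mutant and 13463 ± 867 CPM in untreated wild type (SD, n = 3 each), 2.21-fold higher in JA-treated mutant. Of the 7 identifiers, 4 were higher and 0 lower by edgeR's quasi-likelihood test at a Benjamini-Hochberg adjusted p under 0.05, with 5 higher and 0 lower at an unadjusted p under 0.05 and 4 higher by DESeq2. Over all features tested, edgeR at the adjusted threshold called 5.23% higher and 4.94% lower. The share of all features at an unadjusted p under 0.05 was not computed for any comparison. Counts of copies at that threshold therefore stand without a background. The members' median log2 fold change was 1.09, against 0.01 over all features. The 4 were Zm00001d048806, Zm00001d048809, Zm00001d048812 and Zm00001d048813, and in each the JA-treated mutant libraries lay wholly above the untreated wild type ones, as 14.4% of all features did.

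Zm00001d048806 moved most of the copies that passed the test. It had 3356, 3711 and 3369 CPM in JA-treated mutant, against 904, 818 and 802 CPM in untreated wild type, a log2 fold change of 2.05 ± 0.07 (SE, edgeR adjusted p = 3.07e-10). These groups are far apart, and replicates within each differ by at most 1.13-fold. Zm00001d048809 had 7736, 7191 and 7062 CPM in JA-treated mutant, against 2742, 3852 and 3955 CPM in untreated wild type (log2 fold change 1.06 ± 0.13, edgeR adjusted p = 0.000131). Zm00001d048812, the copy with the most counts in this experiment, had 9075, 11882 and 9554 CPM in JA-treated mutant, against 5173, 4322 and 4662 CPM in untreated wild type (1.11 ± 0.10, edgeR adjusted p = 4.30e-06). The levels of Zm00001d048813 were 4764, 7254 and 5345 CPM in JA-treated mutant, against 2807, 2374 and 2983 CPM in untreated wild type (1.09 ± 0.14, edgeR adjusted p = 0.000174). For all 4 copies the lowest JA-treated mutant library exceeded the highest untreated wild type library, and the calls held without any 1 of the 12 libraries.

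The remaining 3 copies had positive fold changes that did not pass the test, with wide spread among replicates. Zm00001d048807 had 199.8, 600.4 and 132 CPM in JA-treated mutant, against 174, 163 and 78.4 CPM in untreated wild type (log2 fold change 1.17 ± 0.50, edgeR adjusted p = 0.167). Zm00001d048808 had 193, 582 and 98.2 CPM in JA-treated mutant, against 201, 185 and 106 CPM in untreated wild type (0.83 ± 0.54, edgeR adjusted p = 0.382). In both copies replicate 2 of JA-treated mutant stood far above the other libraries and the groups overlapped, and without it the log2 fold change was 0.26 for Zm00001d048807 and −0.18 for Zm00001d048808. Zm00001d048810 had 3149, 1619 and 2398 CPM in JA-treated mutant, against 602, 1738 and 1752 CPM in untreated wild type (0.81 ± 0.42, edgeR adjusted p = 0.253), and here too the groups overlapped.

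**Figure D2:**
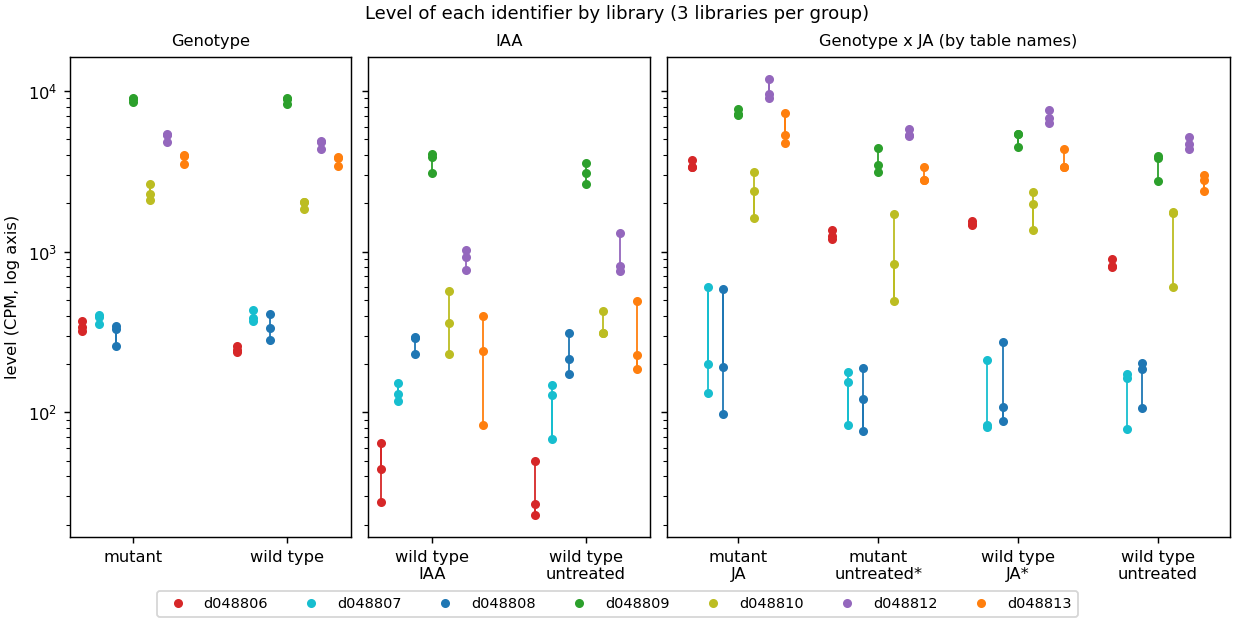
Level of each identifier in CPM (log axis) in every library, with a line joining the 3 libraries of a group; identifiers are shortened to their last digits, and an asterisk marks groups named by their count tables. Zm00001d048806 runs from 22.8 CPM in an untreated library of the IAA experiment to 3711 CPM in a JA-treated mutant library, while Zm00001d048807 and Zm00001d048808 spread widely within the JA groups.

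JA-treated mutant was next set against untreated mutant, by table names the JA response of the mutant and by titles the effect of genotype under JA. Summed, the copies were 2.03-fold higher in JA-treated mutant, at 29756 ± 2682 CPM against 14652 ± 1247 CPM (SD, n = 3 each). The same 4 copies as above were higher and 0 were lower, where 2.05% and 1.61% of all features were called. All 7 had an unadjusted p under 0.05, with no share of all features at that threshold to set beside it. All 7 fold changes were positive, as were 50.8% over all features, and the median was 1.16 against 0.01 over all features. Without JA-treated mutant replicate 2 the median was 0.77, 5 copies had an unadjusted p under 0.05, and Zm00001d048807 and Zm00001d048808 were at 0.26 and 0.18, while 4 copies were still called. DESeq2 also called 4 higher.

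In this comparison Zm00001d048806 was at 3479 ± 201 CPM in JA-treated mutant and 1270.4 ± 89.2 CPM in untreated mutant (SD, n = 3 each), a difference of 1.45 ± 0.07 on the log2 scale (edgeR adjusted p = 3.38e-08). Zm00001d048809 was at 7329.7 ± 357 CPM in JA-treated mutant and 3655 ± 669 CPM in untreated mutant (1.00 ± 0.13, edgeR adjusted p = 0.00045). Zm00001d048812 rose by 0.90 ± 0.10 and Zm00001d048813 by 0.95 ± 0.14 on the log2 scale (edgeR adjusted p = 5.06e-05 and 0.00107). No library of the 2 groups overlapped for these 4 copies, as for 9.93% of all features in this direction. Zm00001d048810 had 3149, 1619 and 2398 CPM in JA-treated mutant, against 843, 495 and 1719 CPM in untreated mutant (1.23 ± 0.42, edgeR adjusted p = 0.138). Its lowest JA-treated library lay just under its highest untreated one, and without untreated mutant replicate 3 it passed the test (edgeR adjusted p = 0.0302, range over the 12 libraries left out 0.0302 to 0.339).

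JA-treated wild type was compared with untreated wild type, by table names the JA response of wild type and by titles the effect of genotype without JA. The sum of the copies was 1.44-fold higher in JA-treated wild type, at 19391 ± 2081 CPM against 13463 ± 867 CPM (SD, n = 3 each). With total counts in place of scaled library sizes the median of all features moved to −0.165 on the log2 scale in this comparison, and the summed log2 ratio was 0.36 against 0.53 on scaled sizes. By edgeR 3 copies were higher and 0 lower, with 4 higher and 0 lower at an unadjusted p under 0.05 and 3 higher by DESeq2. Of all features, edgeR at the adjusted threshold called 1.78% higher and 0.941% lower. The median log2 fold change was 0.48 against 0.01 over all features, and 0.30 without JA-treated wild type replicate 3.

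Zm00001d048806 had 1556, 1485 and 1472 CPM in JA-treated wild type, against 904, 818 and 802 CPM in untreated wild type, higher by 0.84 ± 0.07 on the log2 scale (edgeR adjusted p = 6.77e-06). Zm00001d048812 had 6313, 6819.7 and 7653 CPM in JA-treated wild type, against 5173, 4322 and 4662 CPM in untreated wild type (0.55 ± 0.10, edgeR adjusted p = 0.00449). Zm00001d048809, at 5417, 4463 and 5407 CPM in JA-treated wild type and 2742, 3852 and 3955 CPM in untreated wild type, passed by a small margin (0.54 ± 0.13, edgeR adjusted p = 0.0447), and it lost its call when any 1 of 8 of the 12 libraries was left out, with adjusted p up to 0.173, and with total counts. Zm00001d048813 did not overlap between the groups either, but did not pass (0.44 ± 0.14, edgeR adjusted p = 0.136). These 4 copies were higher in every JA-treated wild type library than in any untreated one, as were 10.7% of all features. Zm00001d048807 and Zm00001d048808 had log2 fold changes of −0.14 ± 0.50 and −0.06 ± 0.53, whose errors do not allow a direction.

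Under JA, mutant was compared with wild type, by table names an effect of genotype and by titles the JA response of the mutant. On the sum, JA-treated mutant was 1.54-fold higher, at 29756 ± 2682 CPM against 19391 ± 2081 CPM in JA-treated wild type (SD, n = 3 each). By edgeR 4 copies were higher and 0 lower, with 5 higher and 0 lower at an unadjusted p under 0.05 and 3 higher by DESeq2. Of all features, edgeR at the adjusted threshold called 1.20% higher and 1.70% lower. The median log2 fold change was 0.65 against 0.00 over all features. Zm00001d048806 again had the smallest error, at 3479 ± 201 CPM in JA-treated mutant and 1505 ± 45.5 CPM in JA-treated wild type (log2 fold change 1.21 ± 0.07 SE, edgeR adjusted p = 4.22e-07). Zm00001d048812 was higher by 0.55 ± 0.10, Zm00001d048813 by 0.65 ± 0.14 and Zm00001d048809 by 0.52 ± 0.13 on the log2 scale (edgeR adjusted p = 0.00463, 0.0204 and 0.048). The call of Zm00001d048809 was lost without any 1 of 8 of the 12 libraries (edgeR adjusted p up to 0.193), by DESeq2, and with the 50 most abundant features left out of library sizes (edgeR adjusted p = 0.0508), and that of Zm00001d048813 without JA-treated wild type replicate 1 or 2 or JA-treated mutant replicate 2 (edgeR adjusted p up to 0.105), so that without any 1 of these 3 libraries 2 calls were left. None of the 4 overlapped between the groups, as for 9.53% of all features in this direction.

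Without JA, mutant was compared with wild type, by table names an effect of genotype and by titles the JA response of wild type. The sum was 1.09-fold higher in untreated mutant, at 14652 ± 1247 CPM against 13463 ± 867 CPM (SD, n = 3 each), and the groups overlapped. Zm00001d048806 alone passed the test, with 1242, 1370.4 and 1199 CPM in untreated mutant, against 904, 818 and 802 CPM in untreated wild type (log2 fold change 0.59 ± 0.07 SE, edgeR adjusted p = 0.000186). The copies counted 1 higher and 0 lower, with 2 higher and 0 lower at an unadjusted p under 0.05 and 1 higher by DESeq2. Of all features, edgeR at the adjusted threshold called 2.76% higher and 2.46% lower. The median of the copies was 0.06 against 0.00 over all features, and −0.10 without untreated mutant replicate 3. Besides Zm00001d048806, Zm00001d048812 did not overlap, at 5829.8, 5319 and 5208 CPM in untreated mutant and 5173, 4322 and 4662 CPM in untreated wild type (0.21 ± 0.10, edgeR adjusted p = 0.249), as did 12.4% of all features. Zm00001d048810 had 843, 495 and 1719 CPM in untreated mutant, against 602, 1738 and 1752 CPM in untreated wild type (−0.42 ± 0.41, edgeR adjusted p = 0.642).

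These 5 comparisons share groups of libraries, so their fold changes are not independent of each other. The untreated wild type libraries serve as control in 3 of them, and the JA-treated mutant libraries stand in 3.

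Whether the 2 factors combined additively on the log2 scale was tested as the JA response of the mutant minus that of wild type. This contrast is the same by table names and by titles. Zm00001d048806 passed, with a difference of 0.61 ± 0.10 (SE, edgeR adjusted p = 0.00822), 1.45 ± 0.07 being its JA response in the mutant and 0.84 ± 0.07 that in wild type. The call held without any 1 of the 12 libraries, with adjusted p up to 0.0329. It was the 1 copy called, with 4 higher and 0 lower at an unadjusted p under 0.05, and DESeq2 also called 1. Of all features, edgeR at the adjusted threshold called 0.213% higher and 0.444% lower. All 7 differences were positive, from 0.35 to 1.31, and those of Zm00001d048807, Zm00001d048808 and Zm00001d048810 had errors of 0.58 or more. The median over the copies was 0.61 against 0.00 over all features, and the summed level gave 0.50. Without JA-treated mutant replicate 2 the median was 0.40.

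**Figure D3:**
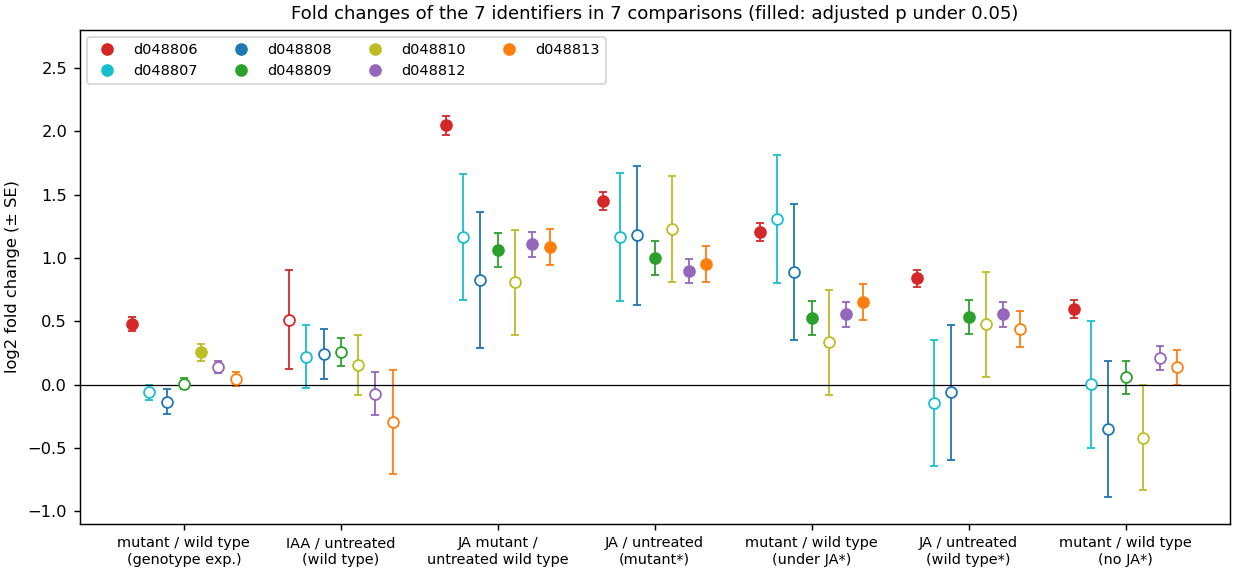
Log2 fold change ± SE of each identifier in 7 comparisons, each with the first-named group over the second; filled points have an edgeR adjusted p under 0.05, and an asterisk marks comparisons that depend on the table names. Zm00001d048806 is filled in all comparisons but that of IAA, from 0.48 in the genotype experiment to 2.05 for JA-treated mutant over untreated wild type.

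In the genotype experiment, the deepest and tightest of the 3, the cluster as a whole moved little. The copies summed to 21614, 20807.5 and 21154 CPM in the mutant, against 20687, 20053 and 19617 CPM in wild type. The mutant mean was 1.05-fold that of wild type, and the 3 mutant libraries lay just above the 3 wild type ones, as 12.3% of single features did in this direction. By edgeR 2 copies were higher and 0 lower, with 3 higher and 0 lower at an unadjusted p under 0.05 and 1 higher by DESeq2. Of all features, edgeR at the adjusted threshold called 3.23% higher and 2.96% lower. The median log2 fold change of the 7 copies was 0.05 against 0.00 over all features.

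Zm00001d048806 had 322, 339 and 370.2 CPM in the mutant, against 243, 238 and 259.5 CPM in wild type, higher by 0.48 ± 0.05 on the log2 scale (edgeR adjusted p = 6.88e-06). The groups do not overlap, and the call held without any 1 of the 6 libraries. Zm00001d048810 had 2296, 2647 and 2098 CPM in the mutant, against 1829, 2039.9 and 2038 CPM in wild type (0.25 ± 0.06, edgeR adjusted p = 0.0186). Its groups were separated only narrowly, and the call was lost by DESeq2 (adjusted p = 0.25), without wild type replicate 1 (edgeR adjusted p = 0.096) and without mutant replicate 2 (edgeR adjusted p = 0.167).

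The most counted copy, Zm00001d048809, had 8991, 8914 and 8537 CPM in the mutant, against 9040.0, 8348 and 8907 CPM in wild type (0.01 ± 0.04, edgeR adjusted p = 0.951). Zm00001d048812 was at 0.14 ± 0.05 (edgeR adjusted p = 0.124), Zm00001d048813 at 0.05 ± 0.05, Zm00001d048807 at −0.06 ± 0.06 and Zm00001d048808 at −0.14 ± 0.10 on the log2 scale. The small errors keep these 5 differences well under the size seen for Zm00001d048806. Zm00001d048806 was thus higher in the mutant in this experiment and, by table names, in both comparisons of genotype in the JA experiment. The size of its fold change was not tested between experiments.

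After IAA no copy passed the test. Summed levels were 4559.6, 6121 and 6363 CPM in IAA-treated wild type, against 4269.8, 4703 and 6285 CPM in untreated wild type, 1.12-fold on the means, and the groups overlapped. By edgeR 0 copies were higher and 0 lower, with 1 higher and 0 lower at an unadjusted p under 0.05 and 0 by DESeq2. Of all features, edgeR at the adjusted threshold called 1.26% higher and 1.12% lower. The 1 at an unadjusted p under 0.05 was Zm00001d048809, with 3103, 4079 and 3904 CPM after IAA and 2627, 3085 and 3578 CPM untreated, a log2 fold change of 0.26 ± 0.11 (SE, edgeR adjusted p = 0.299). The IAA-treated and untreated libraries overlapped for all 7 copies, while 9.96% of all features lay wholly higher after IAA.

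The remaining fold changes after IAA ran from −0.29 ± 0.41 for Zm00001d048813 to 0.51 ± 0.39 for Zm00001d048806. Zm00001d048806 had only 12 to 36 counts in a library here, and Zm00001d048813 had 83 to 493 CPM over the 6 libraries, with a 4.81-fold range among the IAA-treated ones. At this depth a change of 0.48, the size measured for Zm00001d048806 in the genotype experiment, was not detectable, since its error here was 0.39.

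The make-up of the summed count differed between experiments for some copies. Zm00001d048809 held 56.9% to 68.1% of the counts of the 7 identifiers in the IAA experiment, 40.4% to 45.4% in the genotype experiment and 21.8% to 28.8% in the JA experiment. Zm00001d048806 held 0.486% to 1.05%, 1.17% to 1.75% and 5.59% to 12.1% in the same 3 experiments. Zm00001d048813 held 1.82% to 7.84%, 16.9% to 19.3% and 16.7% to 22.5%. For Zm00001d048806 and Zm00001d048809 no library of 1 experiment reached the range of another. The share of Zm00001d048810, in contrast, ran from 3.73% to 12.9% within the JA experiment, which spans its 8.84% to 12.7% in the genotype experiment and its 5.05% to 8.91% in the IAA experiment.

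Levels in untreated wild type endosperm also differed between experiments, for Zm00001d048809 not in the order of its shares. Zm00001d048809 was at 8765 ± 367 CPM in wild type of the genotype experiment, 3097 ± 475 CPM in that of the IAA experiment and 3516 ± 673 CPM in that of the JA experiment (SD, n = 3 each). Zm00001d048806 was at 247 ± 11.5, 33.1 ± 14.3 and 841 ± 55.0 CPM in these groups. The order of the groups therefore differed between the copies: the genotype experiment was highest for Zm00001d048809 and the JA experiment for Zm00001d048806. The experiments were scaled separately and each has its own depth, so a level set across them cannot be told apart from the experiment it came from.

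**Figure D4:**
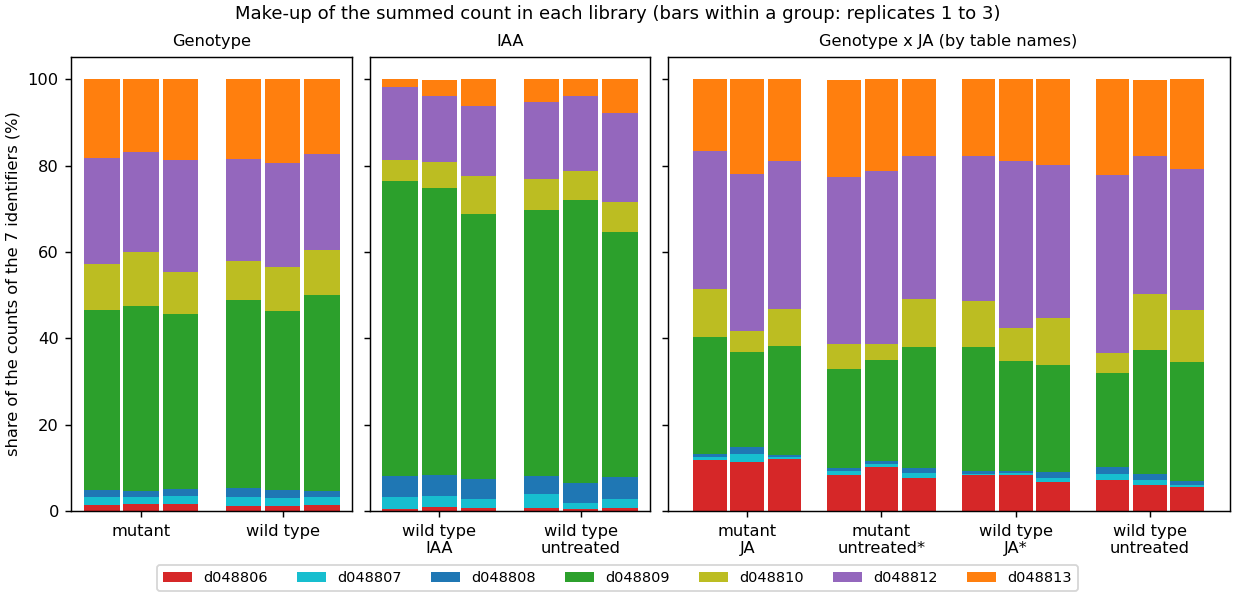
Share of each identifier in the summed count of the 7 (%), 1 stacked bar per library, with replicates 1 to 3 from left to right within a group; an asterisk marks groups named by their count tables. Zm00001d048809 takes at least 56.9% of each bar in the IAA experiment and at most 28.8% in the JA experiment, while Zm00001d048806 grows to 11.3% to 12.1% in JA-treated mutant.

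Within the JA experiment the share of Zm00001d048806 followed the groups. It was 11.3% to 12.1% in JA-treated mutant, 7.64% to 10.3% in untreated mutant, 6.78% to 8.42% in JA-treated wild type and 5.59% to 7.17% in untreated wild type. JA-treated mutant lay above all other libraries, while the neighbouring groups below it overlapped. Its share in the genotype experiment was 1.49% to 1.75% in the mutant and 1.17% to 1.32% in wild type, without overlap. Shares of reads divided among near-identical copies can move with the alleles present as well as with transcription, and this was not tested.

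The copies also differed in how much replicates of a group varied. In the JA experiment the SD of log2 level, pooled over the 4 groups, was 0.0825 for Zm00001d048806, lower than that of most features, since 21.3% of the 1110 features of at least 100 CPM on the mean log scale had a smaller one. It was 0.81 for Zm00001d048807, 0.878 for Zm00001d048808 and 0.705 for Zm00001d048810, and 95.9% to 96.8% of those features had a smaller one. Zm00001d048812, Zm00001d048813 and Zm00001d048809 lay between, at 0.147, 0.223 and 0.214. In the genotype experiment the 6 copies besides Zm00001d048806 were tighter than in the JA experiment, at 0.0516 for Zm00001d048809 to 0.243 for Zm00001d048808, while Zm00001d048806 was at 0.0853 there. Of the 1221 features compared in the genotype experiment, 79.7% had a smaller SD than Zm00001d048806. In the IAA experiment the SDs ran from 0.217 for Zm00001d048809 to 0.967 for Zm00001d048813. That of Zm00001d048806 was 0.584, and 97.9% of the 1562 features compared had a smaller one. A low place among features was thus seen for Zm00001d048806 in the JA experiment only.

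Some copies deviated together from their group means. Over the 12 JA libraries, with group means removed, Pearson's r was 0.98 between Zm00001d048807 and Zm00001d048808, 0.94 between Zm00001d048809 and Zm00001d048810, and 0.92 between Zm00001d048812 and Zm00001d048813. It was −0.92 between Zm00001d048806 and Zm00001d048810, and −0.03 between Zm00001d048807 and Zm00001d048810. Over the 6 genotype libraries the first pair again had 0.98 and the pair Zm00001d048812 and Zm00001d048813 had 0.99, but Zm00001d048809 and Zm00001d048810 had −0.01. Over the 6 IAA libraries r was 0.04 for Zm00001d048807 and Zm00001d048808, 0.71 for Zm00001d048809 and Zm00001d048810, and 0.83 for Zm00001d048812 and Zm00001d048813. The opposite deviation of Zm00001d048806 and Zm00001d048810 was strongest in the JA libraries. Their r was −0.26 over the genotype libraries and 0.60 over the IAA libraries, and whether r differed between experiments was not tested. Over the genotype libraries Zm00001d048810 had r of −0.85 with Zm00001d048807, −0.83 with Zm00001d048808, −0.80 with Zm00001d048812 and −0.75 with Zm00001d048813. These are descriptions over few libraries, and the copies share library, scaling and possibly reads.

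The pairs show in single libraries. Zm00001d048807 and Zm00001d048808 had 600.4 and 582 CPM in replicate 2 of JA-treated mutant, and 132 and 98.2 CPM in replicate 3. Zm00001d048810 and Zm00001d048809 had 602 and 2742 CPM in replicate 1 of untreated wild type, and 1752 and 3955 CPM in replicate 3. Replicate 3 of untreated mutant, in contrast, was the highest of its group for all 4 copies.

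**Figure D5:**
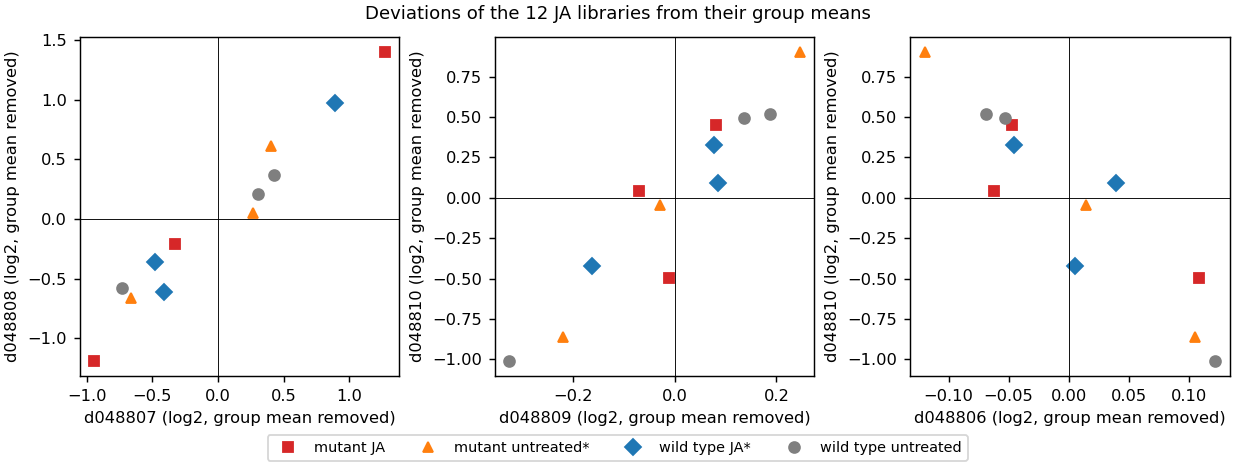
Deviation of each of the 12 JA libraries from its group mean (log2 CPM) for 3 pairs of identifiers; marker shape and colour give the group, and an asterisk marks groups named by their count tables. The left panel rises along 1 line (r = 0.98), the middle panel also rises (r = 0.94), and the right panel falls (r = −0.92) over a range of Zm00001d048806 that is far narrower than that of Zm00001d048810.

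Other features were ranked by how closely they followed the summed level over the 24 libraries, each experiment's mean removed. Of 10362 features outside the list with a mean of at least 10 CPM, Zm00001d048816 was most alike (Pearson's r = 0.94) and Zm00001d049243 next (0.90), and Zm00001d035543 and Zm00001d022421 were most opposite (−0.91 and −0.89). Zm00001d048816 was at 8033 ± 955 CPM in JA-treated mutant and 3689.6 ± 122 CPM in untreated wild type (SD, n = 3 each), a log2 fold change of 1.12 ± 0.08 (SE, edgeR adjusted p = 2.35e-07). Among genotype libraries it was at 8714 ± 401 CPM in the mutant and 8736 ± 346 CPM in wild type. Zm00001d035543 was at 422 ± 19.3 CPM in JA-treated mutant and 659.6 ± 17.4 CPM in untreated wild type (−0.64 ± 0.07, edgeR adjusted p = 4.81e-05). No name or function can be given for these features here.

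Among the copies themselves r with the sum was 0.94 for Zm00001d048809, 0.93 for Zm00001d048812, 0.90 for Zm00001d048806, 0.73 for Zm00001d048813, 0.64 for Zm00001d048810, 0.50 for Zm00001d048807 and 0.47 for Zm00001d048808. Each copy is part of the sum, the more so the more counts it has.

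Of the identifiers numbered within 10 of the list, 19 outside it were in the counts. In JA-treated mutant over untreated wild type 12 of them could be tested and 5 were higher and 0 lower (5.23% and 4.94% of all features). The numbers higher and lower were 4 and 0 for JA-treated over untreated mutant (2.05% and 1.61% of all features) and 5 and 0 for JA-treated mutant over JA-treated wild type (1.20% and 1.70%). They were 4 and 0 for JA-treated over untreated wild type (1.78% and 0.941%), and 2 and 0 for untreated mutant over untreated wild type (2.76% and 2.46%). Zm00001d048816, the feature most alike above, is among those higher in each of these comparisons. Zm00001d048814 and Zm00001d048815, nearly equal in counts, each count as a call in all of them but the last. Of 11 tested in the genotype experiment 0 were higher and 1 lower (3.23% and 2.96% of all features), and after IAA 0 of 7 were called by edgeR (1.26% and 1.12%). The neighbour with the highest mean was Zm00001d048817, at 17831 ± 1088 CPM in JA-treated mutant and 9276 ± 583 CPM in untreated wild type. A pair of neighbours chosen after their values were seen, Zm00001d048814 and Zm00001d048815, had 136548 and 136495 counts over the 24 libraries and differed by at most 9 counts in any of them. Whether reads were counted in both of these neighbours was not tested, and the summed level of the 7 copies is open to the same doubt. The closest pair of listed copies, Zm00001d048807 and Zm00001d048808, differed by up to 384 counts in a library.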

How the data were processed

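The authors deposited whole-number counts per feature, 1 table per library, used here as deposited. Trimmomatic 0.39 and HISAT2 2.2.1 are named in the submitters' processing notes, and libraries were made by MP3RNA-seq, per the labels' protocols. The sources used here do not name the counting program or build, nor the use of strand, duplicate removal or the treatment of reads that match several copies. The members and lists were chosen with earlier results of these data known.

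Each experiment was fitted alone over all features with edgeR 4.0.16 in R 4.3.3 (filterByExpr at a minimum count of 10, TMM scaling, quasi-likelihood F-tests, 2-sided, Benjamini-Hochberg over all features tested, threshold 0.05). The standard error is the absolute log2 fold change divided by the square root of F. CPM use library sizes scaled by TMM within each experiment, and the summed level carries no test. Ranks by mean CPM, likeness to the sum, correlations between copies and deviations from group means instead used TMM sizes of all 24 libraries together. All of these but the ranks were on log2 of CPM plus 1. The alternatives were DESeq2 1.42.0, other scalings, no low-count filter, a replicate block, each library left out, the 2 disputed groups exchanged and ENSRNA features left out, the last chosen after seeing the data. The text names all 7 copies, the 2 features most alike and 2 most opposite to their sum, the highest neighbour and 2 label checks, and a pair of neighbours chosen after their values were seen. Lists of zein, regulator and cell type marker symbols had 0 matched identifiers and are void, so the tissue label was not checked with them. No sequence of these genes was used here. The method was tested on simulated data. Replicates differed beyond sampling noise in all 24 pairs within groups (chi-square per degree of freedom 1.76 to 6.44).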

Additional observations from a re-analysis of the deposited data

Results flagged for a closer look

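Zm00001d048806 responded to JA more strongly in the mutant than in wild type by table names, with a difference of 0.6143 between the log2 responses (SE 0.10, edgeR adjusted p = 0.00822), a test of the difference itself that gives the same value on the titles. ENSRNA features took 10.7%, 6.84% and 3.33% of the counts in the untreated mutant libraries, 1 of the 4 groups in this contrast. The last of these shares lay within the 1.13% to 3.61% of the other groups. With those features left out of the counts 1 copy was still called. That setting removes the features alone, and any other difference of these libraries that goes with the share was not tested. Zm00001d048806 had 1242, 1370.4 and 1199 CPM in those libraries.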

How the results depend on the processing

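Of 264 recomputed counts and summed ratios 244 stayed near their main value, and of 1008 recomputed values of single copies 918 kept direction and side of the threshold; the cause of the changes was not tested. DESeq2 called 1 copy in the genotype experiment. With total counts the summed log2 ratio was 0.36 for JA-treated over untreated wild type and 1.01 for JA-treated mutant over untreated wild type, where the median of all features moved to −0.165 and −0.126. Without the low-count filter 7 copies were called under JA between genotypes, 7 for JA in the mutant, 7 for JA-treated mutant over untreated wild type, 7 for non-additivity, 5 for JA in wild type, and 3 without JA between genotypes (2 higher, 1 lower), with adjusted p as low as 4.93e-195, far below those of the filtered fit. The unfiltered fit also gave undefined F values, so its calls are to be read with caution. With the 2 disputed groups exchanged, JA in wild type gave 1 call and a summed log2 ratio of 0.12, genotype without JA 3 calls and 0.53, JA in the mutant 0.62 and genotype under JA 1.02; Zm00001d048807 was then at 0.0011 for JA in wild type and −0.14 for genotype without JA, and Zm00001d048810 at −0.42 and 0.48.

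Replicate numbers did not pair the libraries (r of deviations −0.093 to 0.098 over same-numbered libraries of all experiments). With the replicate number as a block the copies called stayed at 2, 0, 1, 4, 3, 4, 4 and 1 over the 8 contrasts. Leaving out single libraries gave 1 to 2 copies called in the genotype experiment, 2 to 4 for genotype under JA, 2 to 3 for JA in wild type and 4 to 5 for JA in the mutant.

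Directions turned only for copies that did not pass the test. For genotype without JA, Zm00001d048807 was at −0.0035 with the 50 most abundant features left out of library sizes, −0.040 with total counts, −0.043 without the filter and −0.0035 without ENSRNA features, and at −0.28 to 0.26 with single libraries left out, where Zm00001d048809 ran from −0.10 to 0.16. In the genotype experiment Zm00001d048809 was at −0.0067 without the filter and, with libraries left out, at −0.027 to 0.032, Zm00001d048807 at −0.11 to 0.0080, Zm00001d048808 at −0.26 to 0.0044 and Zm00001d048813 at −0.012 to 0.10. After IAA the ranges were −0.068 to 0.45 for Zm00001d048807, −0.25 to 0.41 for Zm00001d048810, −0.23 to 0.19 for Zm00001d048812 and −0.88 to 0.22 for Zm00001d048813. For JA in wild type they were −0.75 to 0.093 for Zm00001d048807 and −0.74 to 0.22 for Zm00001d048808, and for Zm00001d048808 −0.11 to 1.56 for genotype under JA and −0.18 to 1.24 for JA-treated mutant over untreated wild type. Over all features, calls that moved by more than 1.5 times under other settings than a left-out library or the exchange of groups were 560 by DESeq2 against 1104 in the genotype experiment, 364 without the filter and 319 without ENSRNA features against 183 after IAA, 475 without the filter against 307 for JA in wild type, and, against 74 for non-additivity, 49 with total counts, 289 without the filter, 47 with the replicate block, 140 by DESeq2 and 123 without ENSRNA features. With single libraries left out the features called ran from 702 to 841 in the genotype experiment, 78 to 191 after IAA (183 in full), 300 to 623 for genotype without JA (588), 180 to 317 for genotype under JA (326), 150 to 310 for JA in wild type (307), 235 to 386 for JA in the mutant (412) and 25 to 57 for non-additivity. With the groups exchanged, JA in wild type gave 588 and genotype without JA 307. Zm00001d048806 rested on as few as 12 counts in an IAA library.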
